A study of Homo sapiens with 4 samples.

Results

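Cystatin C (CST3), cystatin B (CSTB), napsin A (NAPSA), the cathepsins CTSB, CTSD, CTSH, CTSL, CTSZ and CTSA, and legumain (LGMN) are inhibitors and proteases of the lysosomal system. They were chosen by name as cystatin inhibitors and lysosomal proteases, with earlier results of these same data known. Of the 10 genes listed, 9 were found among the 15201 genes of the expression table. CTSL was not analysed here. Because the comparison of resistant with wild-type cells had been seen when the genes were chosen, their values are given as a description and no p-value is given for them.

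The libraries, 4 in all, are RNA sequencing of ARP-1 cells, a line established from human multiple myeloma. There were 2 libraries of wild-type cells (WT) and 2 of cells with resistance to carfilzomib (CfzR), an irreversible inhibitor of the proteasome. The sources used here do not give how resistance was raised, whether the resistant line is 1 clone or a pool, or whether drug was present at harvest. The labels do not say that replicates were separate cultures, so any error or p-value here covers the spread between libraries alone.

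Lysosomal cathepsins are made as inactive precursors, carried to the acidic compartments of the cell and activated there by removal of a propeptide. Cysteine cathepsins are held in check by cystatins, which occupy the active site cleft. Cystatin C also inhibits legumain, through a separate site, whereas cystatin B does not. Cystatin C is secreted and can also act in endosomes and lysosomes, whereas cystatin B stays in the cytosol and nucleus. The aspartic proteases cathepsin D and napsin A and the serine carboxypeptidase cathepsin A are not targets of cystatins. Plasma cells secrete large amounts of protein and depend on both proteasomal and lysosomal degradation.

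Values are FPKM, in which fragments are divided by transcript length and library size, so that levels of different genes can be set side by side. Medians over all genes lay between 7.501 and 7.75 FPKM in the 4 libraries, and sums between 673265 (CfzR replicate 1) and 955284 (WT replicate 2). CfzR replicate 1 differed from CfzR replicate 2 with transcript length (Spearman 0.466 across genes, against 0.146 for the WT pair). FPKM hold no counts, so the depth is unknown. Of 12 plasma cell markers 10 were in the table, with summed levels of 5916 and 5990 FPKM (WT) and 6722 and 6152 FPKM (CfzR). JCHAIN, the joining chain of secreted antibodies, made up most of these sums, at 3613 and 3493 FPKM (WT) and 4601 and 3838 FPKM (CfzR). Without JCHAIN the other 9 summed to 2302 and 2497 FPKM (WT) and 2120 and 2314 FPKM (CfzR), so the groups overlapped. Of the 10, 2 were lower in CfzR without overlap, TNFRSF17 and XBP1, against 22.6% of all genes tested. Another 4, JCHAIN, PRDM1, SDC1 and SLAMF7, were higher without overlap, and the share of all genes in that direction was not computed. These counts are not read further. TNFRSF17, the receptor BCMA, stood at 312 and 382 FPKM (WT) and 194 and 275 FPKM (CfzR), with a log2 fold change of -0.58 (SE 0.28, limma adjusted p = 0.495). XBP1, a transcription factor of the secretory programme, stood at 953 and 1084 FPKM (WT) and 800.03 and 868 FPKM (CfzR). In the other direction, PRDM1 stood at 145 and 129 FPKM (WT) and 182 and 152 FPKM (CfzR). SDC1 stood at 205 and 190 FPKM (WT) and 272 and 213 FPKM (CfzR). Of the 10, 1, the surface receptor SLAMF7, was past the threshold given below, at 0.282 and 0.198 FPKM (WT) and 22.1 and 18.7 FPKM (CfzR) (log2 fold change 4.10, SE 0.22, limma adjusted p = 0.000525). Of macrophage and monocyte markers, cells that are rich in cathepsins, 2 of 10 had values, with sums of 2.50 to 3.44 FPKM in WT and 3.18 to 4.51 in CfzR. The 6 B cell and 8 T and NK cell markers listed had no values and so were not analysed here. The part of these values in the results below was not tested. In such bulk libraries, fewer cells of a kind and less RNA per cell cannot be told apart.

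Of the 9 genes, 8 averaged 1 FPKM or more across libraries and entered the comparison across genes, and CTSH did not. With limma on log2(FPKM + 1) and a Benjamini-Hochberg adjusted p under 0.05, 2 of the 8 were past the threshold, CST3 and NAPSA, both lower in CfzR. Over all 13411 genes tested, 47 were past it (0.35%), 14 of them lower. CfzR lay below WT without overlap for 4 of the 8 genes, CST3, NAPSA, CTSB and CTSZ, against 22.6% of all genes tested. These counts follow from how the genes were chosen and are not read further. The median log2 fold change of the 8 was -0.36, and that of all genes tested was -0.02.

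**Figure D1:**
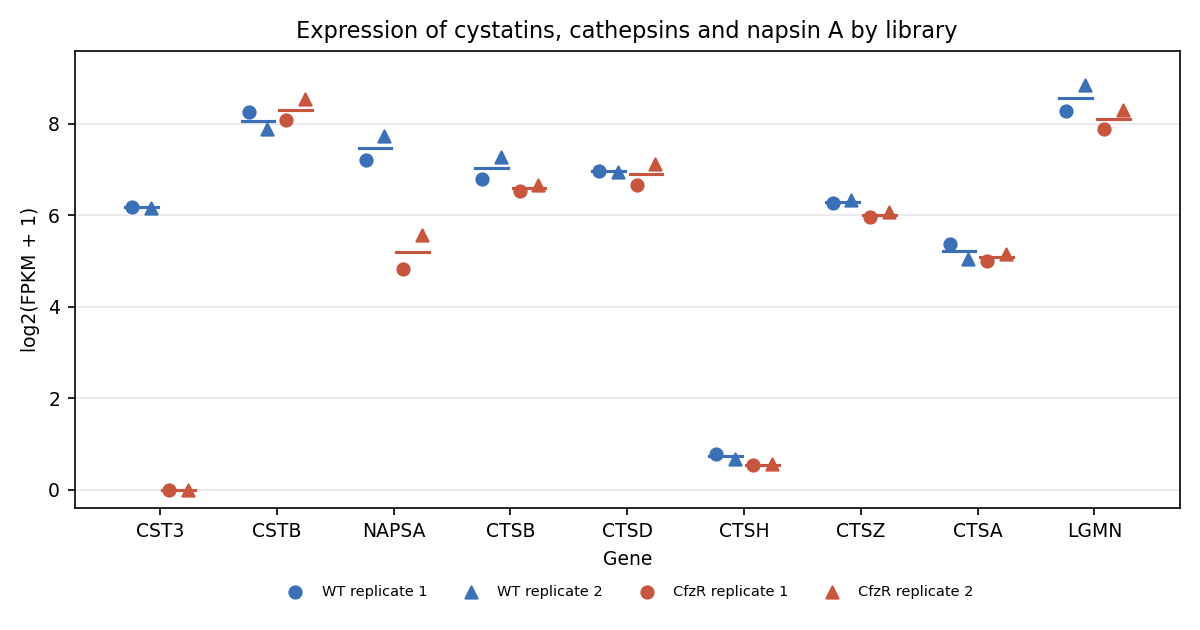
Expression of each gene in each library, as log2(FPKM + 1); blue symbols are WT and red symbols CfzR, circles are replicate 1 and triangles replicate 2, and short lines are group means on this scale. CST3 lies at 0 in both CfzR libraries and NAPSA between 27.4 and 46.2 FPKM there, below both WT libraries, while CSTB, CTSD, CTSA and LGMN overlap between the groups.

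CST3, the secreted cystatin C, was expressed at 71.6 and 70.5 FPKM in WT replicates 1 and 2, and its value was 0 in CfzR replicates 1 and 2. CST3 stood above 88.5% of all genes in WT. No fold is given against a group at 0, and the fitted log2 fold change depends on the constant added before taking logs (-6.17 with 1 FPKM, -9.48 with 0.1 and -3.93 with 5). A value of 0 can be a failed estimate in a table without counts. Of 26 genes that every cell uses, such as ACTB and GAPDH, 24 had values and 0 of them were listed at 0 in any library, with a lowest value of 10.05 FPKM. An estimate can fail in a single gene, so these genes cannot decide the question for CST3. Among 10893 protein-coding genes, CST3 was the single gene listed at 0 in both CfzR libraries with at least 10 FPKM in both WT libraries, and 0 genes showed the opposite pattern. In 1 protein-coding gene a library was listed at 0 while its replicate had at least 10 FPKM. Over genes of all types this held for 13. The pattern of CST3 was then seen in 2 genes, CST3 and the pseudogene RPL39P17 (19.6 and 29.7 FPKM in WT, 0 in both CfzR libraries). Whether the value of 0 for CST3 is a failed estimate was not tested.

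CST3 (ENSG00000101439) lies on the minus strand of chromosome 20, from 23626706 to 23638473 in GENCODE release 29 (GRCh38), in a cluster of secreted cystatin genes. Its promoter is shown because the transcript was listed at 0 in both resistant libraries. The 250 bases before the RefSeq start (chr20:23637956-23638205, GRCh38.p14, minus strand) read as follows, with the letters GGGCGG, the core of the GC box bound by Sp1 family factors, in capitals.

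CST3: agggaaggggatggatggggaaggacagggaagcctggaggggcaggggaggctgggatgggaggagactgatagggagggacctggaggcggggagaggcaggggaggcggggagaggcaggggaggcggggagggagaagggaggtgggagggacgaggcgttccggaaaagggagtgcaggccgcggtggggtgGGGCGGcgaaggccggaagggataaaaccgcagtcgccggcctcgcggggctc

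The window lies inside the GENCODE gene, which reaches further upstream to 23638473. It holds 16 CpG dinucleotides, more than in 59.0% of 35116 RefSeq promoter windows of the same length, whose median is 11, and has 70.8% G and C. GGGCGG, searched on both strands, occurs 1 time, and 42.6% of all windows hold it. The E-box core CACGTG was searched in the same way, as were the CCAAT box and the TATA box (TATAAA), and none is among the letters of this window. No chromatin or methylation data were analysed here.

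The nearest tested genes on either side of CST3 were not listed at 0. Of the 6 nearest tested genes, 0 were past the threshold in limma and 0 had an unadjusted p under 0.05, with log2 fold changes from -0.39 to 0.56 and a median of 0.03. NAPB, a vesicle fusion factor 0.235 Mb away, stood at 4.56 and 4.3995 FPKM (WT) and 5.51 and 4.29 FPKM (CfzR). GZF1, a zinc finger protein, stood at 4.34 and 3.76 FPKM (WT) and 4.59 and 3.33 FPKM (CfzR). The noncoding RNA LINC01431 stood at 1.48 and 0.536 FPKM (WT) and 1.84 and 1.90 FPKM (CfzR). On the other side, 1.32 Mb away, lies CST7, which encodes the lysosomal cystatin F, followed by APMAP and ACSS1 (log2 fold changes 0.24 and -0.26). Of 16 further cystatins sought, 1, CST7, had a value. The other members of the cystatin cluster, on either side of CST3, were therefore not analysed here.

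**Figure D2:**
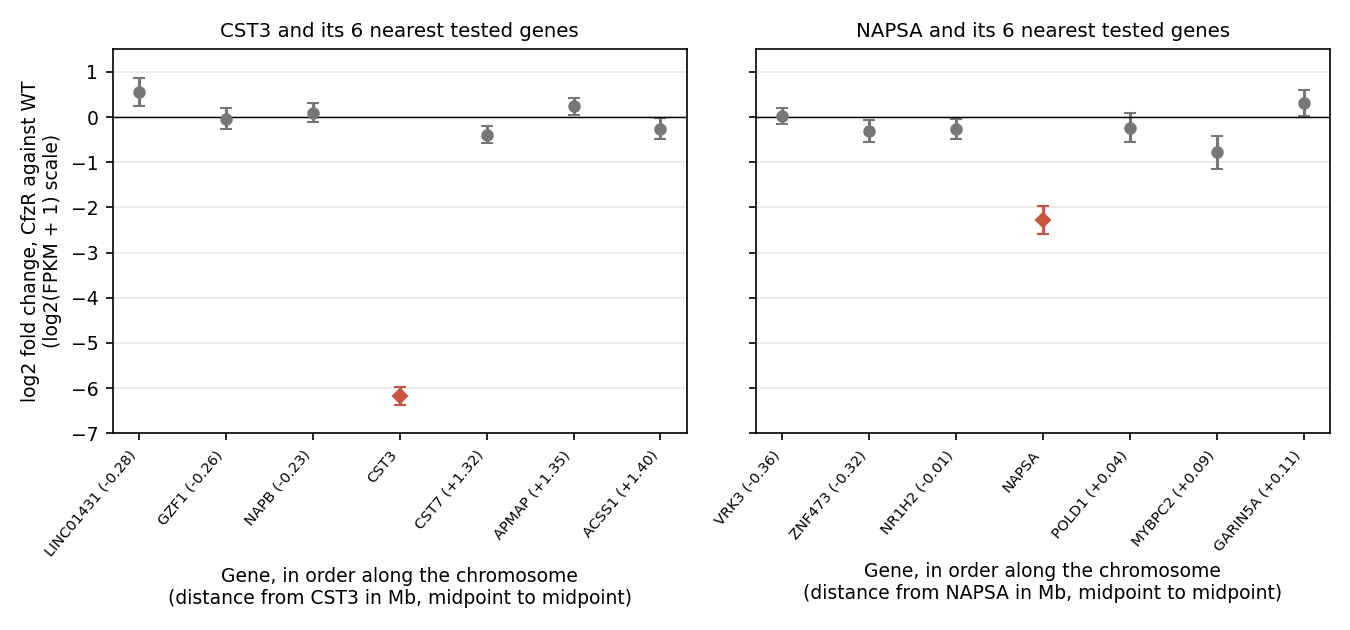
Log2 fold change of CST3 (left) and NAPSA (right), red diamonds, and of the 6 nearest tested genes of each, grey circles, on the log2(FPKM + 1) scale; bars are the standard error from limma, and distances in Mb are in parentheses. Neighbours of CST3 lie between -0.39 and 0.56 and those of NAPSA between -0.78 and 0.31, while CST3, listed at 0 in CfzR, has a fitted value that depends on the constant added.

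CSTB, the cytosolic inhibitor cystatin B, stood at 307 and 234 FPKM (WT) and 269 and 374 FPKM (CfzR). The groups overlapped, with the lowest value in WT replicate 2 and the highest in CfzR replicate 2. The means were 271 ± 51.5 FPKM in WT and 321 ± 74.5 in CfzR (SD, n = 2 each), a log2 fold change of 0.24 (SE 0.28). CSTB (chromosome 21, 43772511 to 43776445) was the second most abundant of the 9 genes in WT and the most abundant in CfzR. CST7 was the sole further cystatin with a value of the 16 sought. It stood at 48.7 and 46.8 FPKM (WT) and 35.0 and 37.5 FPKM (CfzR), without overlap (log2 fold change -0.39, SE 0.19, limma adjusted p = 0.496). CSTB and CST7, unlike CST3, had values of at least 35.0 FPKM in each of the 4 libraries.

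NAPSA encodes an aspartic protease best known from lung and kidney epithelium, where it matures surfactant protein B. It stood at 147 and 211 FPKM in WT, above 95.2% of all genes, and at 27.4 and 46.2 FPKM in CfzR. Both CfzR libraries lay well below both WT libraries. The means were 179 ± 44.9 and 36.8 ± 13.3 FPKM (SD, n = 2 each), so that CfzR was 4.86-fold lower, with a log2 fold change of -2.27 (SE 0.31). The direction held under 13 other settings, with log2 fold changes from -2.64 to -1.91, but NAPSA was no longer past the threshold under 6 of them, including without CfzR replicate 1 or without CfzR replicate 2. Its order among the 9 genes moved from the third place in WT to the sixth in CfzR.

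NAPSA (ENSG00000131400) lies on the minus strand of chromosome 19, from 50358477 to 50365830, within the span of NR1H2 (50329653 to 50382982), which runs on the opposite strand and encodes the sterol sensor LXR beta. Whether strand was used in counting is not given in the sources used here, so reads of overlapping genes may have been shared. NR1H2 stood at 88.6 and 93.9 FPKM (WT) and 65.8 and 87.7 FPKM (CfzR) (log2 fold change -0.26, SE 0.22, limma adjusted p = 0.668). The near-identical copy NAPSB, named after its values were seen, stood at 1.23 and 1.60 FPKM (WT) and at 0 in CfzR replicates 1 and 2, below the filter on low values. Reads may be split between NAPSA and NAPSB, so the value of each is uncertain to that extent.

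RefSeq gives 2 starts for NAPSA. The windows of 250 bases before each (distal chr19:50369303-50369552 and proximal chr19:50365640-50365889, GRCh38.p14, minus strand) are shown because NAPSA was the other gene of the group past the threshold, with CACGTG (the E-box core) and CCAAT (the CCAAT box) in capitals where present.

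NAPSA distal start: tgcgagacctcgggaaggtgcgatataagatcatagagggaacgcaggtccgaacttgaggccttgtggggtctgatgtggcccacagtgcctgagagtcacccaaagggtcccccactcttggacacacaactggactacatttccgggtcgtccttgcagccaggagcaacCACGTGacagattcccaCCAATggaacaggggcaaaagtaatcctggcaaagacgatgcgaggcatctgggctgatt

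NAPSA proximal start: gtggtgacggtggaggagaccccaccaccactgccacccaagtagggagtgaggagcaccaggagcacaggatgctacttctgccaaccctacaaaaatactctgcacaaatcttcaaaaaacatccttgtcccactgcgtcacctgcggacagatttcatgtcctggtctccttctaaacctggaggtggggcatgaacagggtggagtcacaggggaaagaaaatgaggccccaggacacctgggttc

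The proximal window spans the start of the GENCODE gene at 50365830, and the distal window lies upstream of it. The proximal window holds 3 CpG dinucleotides, fewer than the median of 11, and none of the 4 motifs searched on both strands. The distal window holds 10 CpG dinucleotides, 1 CACGTG, found in 6.34% of all windows, and 1 CCAAT, found in 32.0%. Neither holds GGGCGG, which the CST3 window has. Windows were examined for 6 of the 9 genes, and 5 of these held GGGCGG and 3 held CACGTG (CTSD, CTSA and the distal start of NAPSA). The expression table does not tell which start was used.

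The 6 nearest tested genes of NAPSA had log2 fold changes from -0.78 to 0.31, a median of -0.25, and 0 past the threshold or with an unadjusted p under 0.05. MYBPC2, which encodes a muscle myosin-binding protein, had the lowest, with 376 and 421 FPKM (WT) and 161 and 331 FPKM (CfzR) (limma adjusted p = 0.485). POLD1, the catalytic subunit of DNA polymerase delta, stood at 110 and 105 FPKM (WT) and 65.7 and 127 FPKM (CfzR). In both genes CfzR replicate 1 was the lowest library. NAPSB had no position in the annotation used and was below the filter, so it could not be among the 6.

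NAPSA is used as a marker of alveolar epithelium, so other markers of that tissue were examined. Of 6 further markers, 2 had values, KRT7 and NKX2-1, and the surfactant genes SFTPA1, SFTPB and SFTPC were not analysed here. NKX2-1, a lung and thyroid transcription factor, stood at 0.0976 and 0.209 FPKM (WT) and 1.36 and 1.38 FPKM (CfzR), the opposite direction to NAPSA, and was below the filter on low values.

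Cathepsin D (CTSD), the main lysosomal aspartic protease, was the counterpart of NAPSA within the group. It stood at 125 and 123 FPKM (WT) and 101 and 138 FPKM (CfzR), so the CfzR libraries lay on either side of WT. The means were 124 ± 1.45 and 119 ± 26.0 FPKM (SD, n = 2 each), a log2 fold change of -0.07 (SE 0.24) that turned to 0.11 under quantile normalization. CTSD lies on chromosome 11 (1752752 to 1764573). The ratio of NAPSA to CTSD was 1.18 and 1.71 in WT and 0.271 and 0.335 in CfzR. NAPSA made up 54.1% and 63.1% of the summed FPKM of both aspartic proteases in WT and 21.3% and 25.1% in CfzR. The sum itself was 272 and 334 FPKM (WT) and 128 and 184 FPKM (CfzR).

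The cysteine proteases of the group were 4 with values. LGMN, the asparaginyl endopeptidase that matures several cathepsins, was the most abundant of all 9 genes in WT, at 309 and 463 FPKM, and stood at 236 and 315 in CfzR. The groups overlapped between WT replicate 1 and CfzR replicate 2, with a log2 fold change of -0.47 (SE 0.30). CTSB, which acts both as an endopeptidase and as a dipeptidyl carboxypeptidase, stood at 110 and 155 FPKM (WT) and 91.2 and 99.9 FPKM (CfzR). Both CfzR libraries were below both WT libraries, and the log2 fold change was -0.45 (SE 0.24).

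CTSZ, a carboxypeptidase also called cathepsin X, stood at 75.9 and 79.2 FPKM (WT) and 61.1 and 66.6 FPKM (CfzR). It likewise showed no overlap, with a log2 fold change of -0.28 (SE 0.20), and neither CTSB nor CTSZ was past the threshold. CTSH, an aminopeptidase, was near the lower limit of the table, at 0.727 and 0.595 FPKM (WT) and 0.443 and 0.466 FPKM (CfzR). LGMN lies on chromosome 14 (92703807 to 92748702), CTSZ on chromosome 20 (58995185 to 59007247), CTSH on chromosome 15 (78921058 to 78949574) and CTSB on chromosome 8.

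CTSA, the serine carboxypeptidase that also shields beta-galactosidase and neuraminidase in a complex, stood at 40.5 and 32.0 FPKM (WT) and 31.2 and 34.6 FPKM (CfzR). The groups overlapped (log2 fold change -0.13, SE 0.21). CTSA (chromosome 20, 45890144 to 45898820) overlaps NEURL2 and PLTP on the opposite strand. NEURL2 stood at 8.57 and 7.89 FPKM (WT) and 5.50 and 6.99 FPKM (CfzR), and PLTP at 23.2 and 17.5 in WT and 20.1 and 15.8 in CfzR.

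In WT the order of mean levels was LGMN, CSTB, NAPSA, CTSB, CTSD, CTSZ, CST3, CTSA and CTSH. The ranges of the neighbours NAPSA and CTSB overlapped, as did those of CTSB and CTSD. The lowest LGMN value (309 FPKM) was just above the highest CSTB value (307 FPKM). In CfzR the order was CSTB, LGMN, CTSD, CTSB, CTSZ, NAPSA, CTSA, CTSH and CST3, with overlapping ranges for CSTB and LGMN and for NAPSA and CTSA. All 8 genes with a value above 0 in CfzR were lower in CfzR replicate 1 than in CfzR replicate 2, which held for 54.5% of all genes tested. In WT, 4 of the 9 genes were lower in replicate 1 and 5 were higher.

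The balance of inhibitor to protease was taken per library as the summed FPKM of CST3 and CSTB over that of CTSB, CTSH, CTSZ and LGMN. The sum of inhibitors was 379 and 305 FPKM (WT) and 269 and 374 FPKM (CfzR). The sum of proteases was 496 and 697 FPKM (WT) and 389 and 482 FPKM (CfzR). The ratio was 0.764 and 0.437 in WT and 0.690 and 0.776 in CfzR, so the groups overlapped, with WT replicate 2 the lowest library. The ratio of the group means, CfzR over WT, was 1.22, and it was 0.959 without WT replicate 2 and 1.68 without WT replicate 1.

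The makeup of the inhibitor side depends on the value of 0 for CST3 in CfzR, which was not tested for a failed estimate. The shares and ratios with CST3 restate that value and are not a separate result. CST3 made up 18.9% and 23.1% of summed cystatin FPKM in WT and 0 in CfzR. The ratio of CST3 to the cysteine proteases was 0.145 and 0.101 in WT and 0 in both CfzR libraries. CSTB alone over the same proteases gave 0.620 and 0.336 in WT and 0.690 and 0.776 in CfzR, where the CfzR libraries were above both WT libraries. Since cystatin B does not inhibit legumain, the ratio of CSTB to CTSB, CTSH and CTSZ was added after the values were seen, and it was 1.65 and 0.999 in WT and 1.76 and 2.24 in CfzR. With cystatins that enter the secretory pathway alone, CST3 and CST7, a ratio added after the values were seen, it was 0.243 and 0.168 in WT and 0.0900 and 0.0779 in CfzR, 0.409 times the WT mean. Both genes had been seen to be lower in CfzR, so this direction is not a separate result. On the protease side, LGMN held 62.4% and 66.3% of the sum in WT and 60.7% and 65.4% in CfzR, and CTSB 22.1% and 22.2% in WT and 23.4% and 20.7% in CfzR, so these shares overlapped between the groups.

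**Figure D3:**
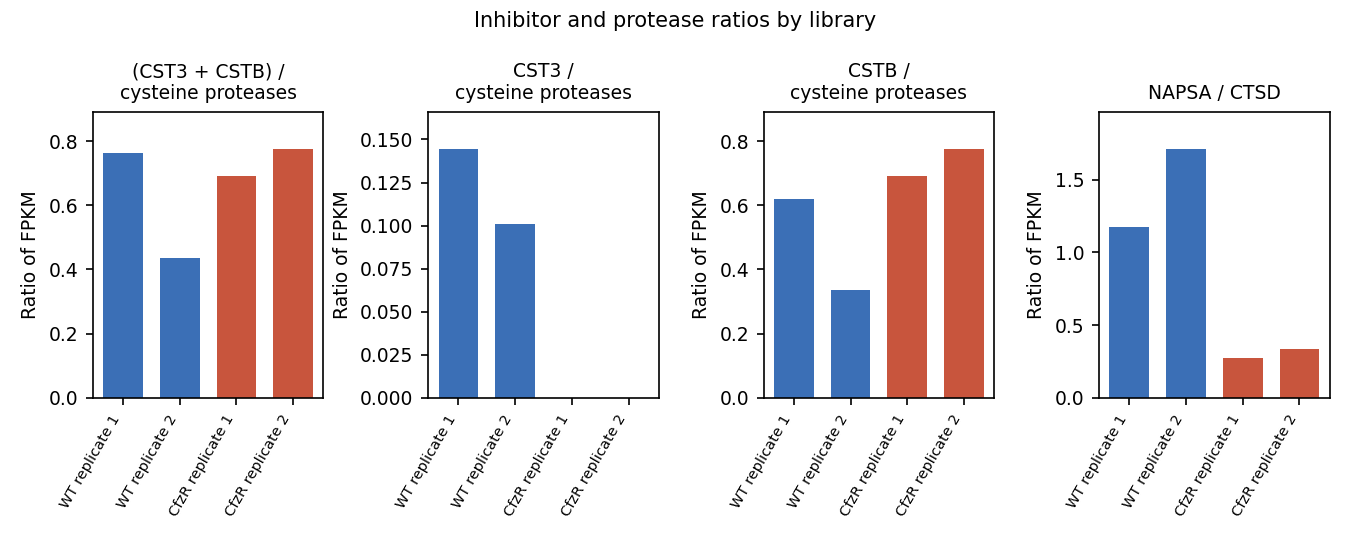
Ratios of FPKM in each library (bars; blue WT, red CfzR) for all cystatins of the group, CST3 alone and CSTB alone over the cysteine proteases CTSB, CTSH, CTSZ and LGMN, and for NAPSA over CTSD; each panel has its own axis starting at 0. The first ratio overlaps between the groups (0.437 to 0.764 and 0.690 to 0.776), CST3 alone has no bar in CfzR, and NAPSA over CTSD is at most 0.335 in CfzR and at least 1.18 in WT.

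The rest of the lysosomal system was described with 10 lists of 184 genes in all, of which 128 were tested. In limma 0 of the 128 were past the threshold, in either direction, and 15 had an unadjusted p under 0.05 (11.7%, against 11.1% of all genes tested), 8 of them higher and 7 lower in CfzR. The median log2 fold change of the 128 was 0.04, against -0.02 over all genes tested. Values ran from -1.66 for CTSW to 1.40 for SERPINB6. A miss of the threshold is not evidence of equal expression.

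Among other cysteine cathepsins, 0 of 5 passed the threshold and 1 had an unadjusted p under 0.05, with a median log2 fold change of -0.20. CTSC, which activates granule serine proteases, stood at 168 and 156 FPKM (WT) and 159 and 162 FPKM (CfzR) (limma adjusted p = 0.988). Its level was above that of CTSB in each library, in WT as in CfzR. CTSS, which cleaves the invariant chain, stood at 21.4 and 19.7 FPKM (WT) and 30.01 and 24.2 FPKM (CfzR) (adjusted p = 0.526). CTSF stood at 28.4 and 40.3 FPKM (WT) and 21.5 and 31.2 FPKM (CfzR) (adjusted p = 0.604). CTSW, a cathepsin of cytotoxic lymphocytes named after its values were seen, stood at 4.996 and 7.71 FPKM (WT) and 1.06 and 1.54 FPKM (CfzR), 4.88-fold lower in the mean (limma log2 fold change -1.66, SE 0.27, adjusted p = 0.0848).

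Of 7 genes listed as other lysosomal proteases and peptidases, 0 passed and 2 had an unadjusted p under 0.05, DPP7 and BACE1, both lower in CfzR. The list holds 2 enzymes that are not proteases, the glycosidase CTBS and the phospholipase-like PLBD2. DPP7, a dipeptidyl peptidase, stood at 215 and 253 FPKM (WT) and 90.4 and 162 FPKM (CfzR) (log2 fold change -0.94, SE 0.31, limma adjusted p = 0.345). BACE1, an aspartic protease of endosomes, stood at 7.35 and 8.43 FPKM (WT) and 5.57 and 3.35 FPKM (CfzR), with a log2 fold change of -0.73 (SE 0.26, limma adjusted p = 0.368). CTBS, the highest of the list in log2 fold change (0.51), which degrades chitobiose units of glycoproteins, stood at 5.74 and 5.58 FPKM (WT) and 10.02 and 7.13 FPKM (CfzR) (adjusted p = 0.469). Of 12 other protease inhibitors, 0 passed, 5 had an unadjusted p under 0.05, and 6 were positive and 6 negative. SERPINE2, which blocks thrombin and plasminogen activators, stood at 8.37 and 8.03 FPKM (WT) and 17.4 and 16.1 FPKM (CfzR) (adjusted p = 0.137). SPINK2, a Kazal-type inhibitor of serine proteases, stood at 31.1 and 29.5 FPKM (WT) and 15.3 and 22.0 FPKM (CfzR) (adjusted p = 0.329). SERPINB6, an intracellular inhibitor named after its values were seen, stood at 1.52 and 2.06 FPKM (WT) and 5.45 and 7.28 FPKM (CfzR) (adjusted p = 0.0993).

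Enzyme sorting and the lysosomal compartment were described in the same way. Of 20 genes for sorting of lysosomal enzymes, 0 passed, 1 had an unadjusted p under 0.05 and the median log2 fold change was 0.03. The adaptor subunits AP1S2 and AP1M1 marked the ends, with log2 fold changes of 0.71 and -0.28 (limma adjusted p = 0.281 and 0.594). Of 18 proton pump genes 0 passed and 1 had an unadjusted p under 0.05, with a median of 0.02, and ATP6V1A and ATP6V1F at 0.45 and -0.53. Of 16 lysosomal membrane proteins 0 passed and 0 had an unadjusted p under 0.05, with a median of 0.05. LAMP2, which takes part in chaperone-mediated autophagy, stood at 14.4 and 12.9 FPKM (WT) and 24.2 and 16.9 FPKM (CfzR) (adjusted p = 0.450), and the calcium channel MCOLN1 at 37.2 and 45.3 in WT and 19.6 and 35.0 in CfzR (adjusted p = 0.485).

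Other lysosomal hydrolases and activators were the list with the highest median of the 10, 0.20, with 0 past the threshold and 5 with an unadjusted p under 0.05. In it 22 of 29 were positive, against 78 of the 128 over all lists. The share of positive genes over all genes tested was not computed, so this count is not read further. GUSB, beta-glucuronidase, stood at 129 and 122 FPKM (WT) and 182 and 215 FPKM (CfzR) (log2 fold change 0.66, SE 0.22, limma adjusted p = 0.344). SGSH, the sulfamidase of heparan sulfate breakdown, stood at 76.8 and 95.3 FPKM (WT) and 40.9 and 62.6 FPKM (CfzR) (adjusted p = 0.369). Of 18 regulators of lysosomal genes 0 passed and 0 had an unadjusted p under 0.05, with a median of 0.02. LAMTOR2, a subunit of the Ragulator complex, and FNIP1, a partner of folliculin, stood at -0.53 and 0.46 in log2 fold change (limma adjusted p = 0.469 and 0.491). TFEB, the transcription factor that activates lysosomal genes, stood at 20.7 and 26.5 FPKM (WT) and 16.3 and 26.6 FPKM (CfzR) (adjusted p = 0.830). Of the class II antigen processing list 2 of 13 genes were tested and 0 passed or had an unadjusted p under 0.05; IFI30, a lysosomal thiol reductase, stood at 61.0 and 53.0 FPKM (WT) and 56.6 and 68.4 FPKM (CfzR) (adjusted p = 0.820).

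**Figure D4:**
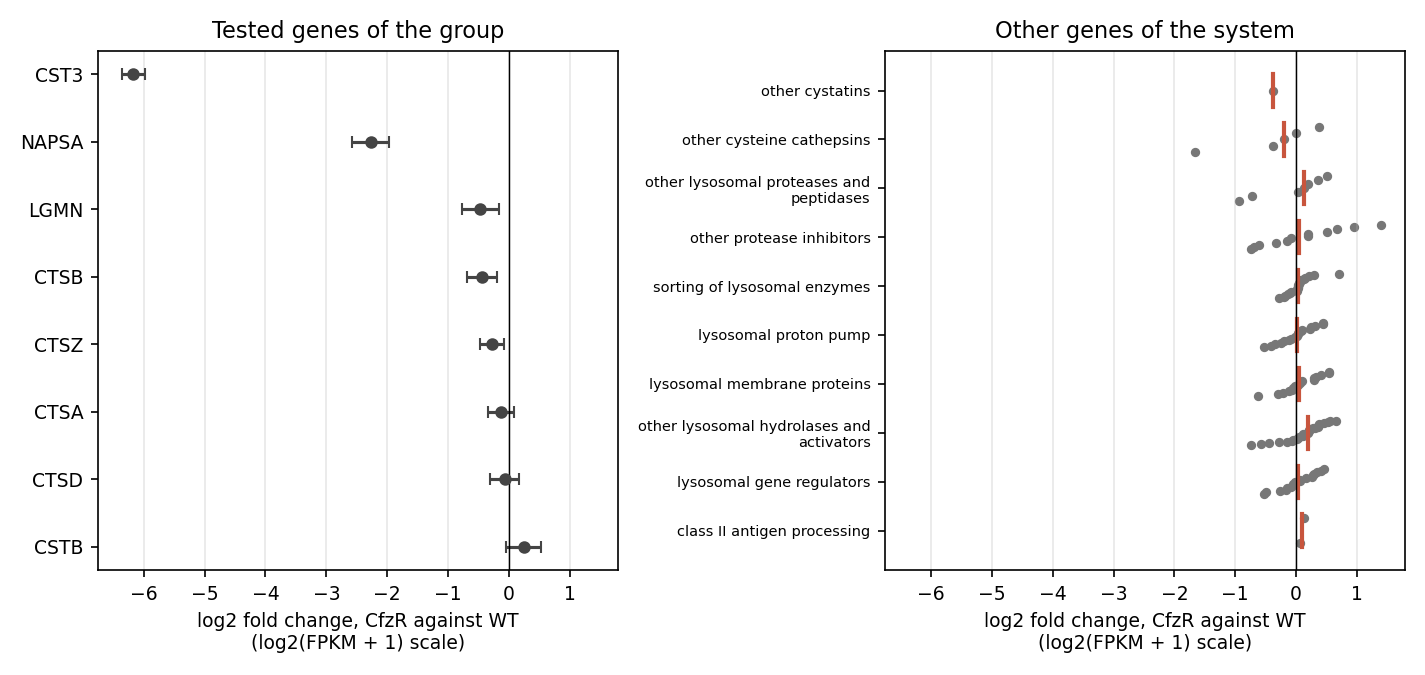
Log2 fold changes, CfzR against WT, on the log2(FPKM + 1) scale: left, the 8 tested genes of the group with the standard error from limma as bars; right, each tested gene of 10 lists of the lysosomal system as a grey point, with the list's median as a red line (vertical spread within a list is for display). CST3, listed at 0 in CfzR, and NAPSA lie apart on the left, and the 128 genes on the right run from -1.66 to 1.40.

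Over the 4 libraries, the 5 tested genes nearest to CST3 in pattern were S100A4, LINC02780, RPL39P17, OVAAL and GNLY, by Euclidean distance of log2(FPKM + 1) values centred on each gene's mean (1.01, 1.42, 1.58, 2.36 and 2.88). They lie on chromosomes 1, 1, 3, 1 and 2, none on chromosome 20. RPL39P17 is a pseudogene and uncertain for shared reads. With 4 libraries this likeness says only that these genes were much higher in both WT libraries than in both CfzR libraries. The values were not scaled, so the distance also depends on the size of the fall. The log2 fold changes of the 5 ran from -7.14 (S100A4) to -3.30 (GNLY). S100A4, a calcium-binding protein, stood at 209 and 240 FPKM (WT) and 0.416 and 0.788 FPKM (CfzR). GNLY, a granule protein of cytotoxic lymphocytes, stood at 23.4 and 25.2 FPKM (WT) and 1.35 and 1.80 FPKM (CfzR). Among them CST3 had the smallest relative difference between its WT libraries (71.6 and 70.5 FPKM).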

How the data were processed

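RNA of ARP-1 cells was sequenced in 2 WT and 2 CfzR libraries, and per the submitters' processing notes STAR and Cufflinks were used. For versions, genome build, annotation and strandedness nothing is stated in these sources. The table deposited by the authors holds FPKM in a column for each library, a unit taken from Cufflinks and the decimal values, since the header names none. Columns named for a control were assigned to WT, the sole other group. Depth is unknown, so no counting error is given. Symbols were matched for 15027 of 15201 IDs, and positions and transcript lengths came from GENCODE release 29. Promoters came from RefSeq (GRCh38.p14).

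Genes averaging 1 FPKM or more were tested on log2(FPKM + 1) with limma 3.58.1 in R 4.3.3 (mean-variance trend), two-sided, with Benjamini-Hochberg adjustment over 13411 genes and a threshold of 0.05. The procedure was tested on simulated data. The exact permutation test was not used, since 2 against 2 libraries cannot reach the threshold. The members, lists and alternatives were chosen with earlier results of these data known. CTSW, SERPINB6, BACE1, PLBD2, JCHAIN, XBP1, PRDM1, SDC1, NAPSB, CTSC and TFEB, the NEURL2 and PLTP overlaps and NKX2-1 were named after their values were seen. Otherwise the named genes are all members, up to 4 list genes past the threshold per list, the gene with the largest positive and negative change per list among those with at least 5 FPKM, the neighbours of CST3 and NAPSA, and the 5 genes nearest to CST3. Also tried were a pseudocount of 0.1 or 5, a filter of 5 FPKM or none, trimmed-mean and quantile scaling, no trend, a replicate block, leaving out each library, and a correction for transcript length (spline with 4 degrees of freedom, 96.2% of tested genes).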

Additional observations from a re-analysis of the deposited data

How the results depend on the processing

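CST3 was past the threshold under all 13 alternatives run. NAPSA kept its direction under all 13 and lost the call under 6, so that 1 of the 8 tested members instead of 2 was called with a pseudocount of 0.1, no filter, no mean-variance trend or the length correction; with 1 library left out, 1 to 2 were called (1 without CfzR replicate 1 or CfzR replicate 2). Directions turned for members near 0: CTSD had a log2 fold change of 0.11 under quantile normalization and 0.15 without CfzR replicate 1, and CTSA 0.0356 without WT replicate 1 (ranges with 1 library left out, -0.29 to 0.15 for CTSD and -0.29 to 0.0356 for CTSA). The count over all genes was 27 with a filter at 5 FPKM, where fewer genes were tested, and 16 to 260 with 1 library left out (260 without WT replicate 1, 148 without WT replicate 2, 16 without CfzR replicate 1, 17 without CfzR replicate 2), where the lone library is assumed to vary like the other group. List genes called were 0 to 1 and neighbours called 0 to 1 with 1 library left out. The replicate numbers are not known to pair the libraries (correlation of deviations 0.252, with 2 pairs). With the replicate block, which leaves 1 residual degree of freedom per gene, 1242 genes were called, among them 9 list genes, 4 neighbours and the same count of members, 2; the cause was not tested. The CfzR to WT ratio of the cystatin balance was 1.22, and 0.959 to 1.68 with 1 library left out. Without CSTB it was 0 with CST3 alone, which was listed at 0 in both CfzR libraries. With CST3 and CST7, both lower in CfzR, it was 0.409. The depth of the libraries is unknown and limits what can be said of low genes such as CTSH.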
